A study of Mus musculus with 3 samples.

Results

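The comparison set gonads of male mouse embryos lacking Cyp26b1 at embryonic day 13.5 (E13.5) against the same tissue at E12.5, the first of the 2 daily steps the series covers. It used the 4 arrays of 2 samples, out of 6 arrays of 3 samples, with 2 arrays per stage that the series describes as biological duplicates. All embryos were Cyp26b1-/- on the mouse line MCH, so both groups carried the same mutation and differed only in the labelled stage; no control genotype was analysed here. The labels do not say how many embryos or gonads went into an array. Total RNA from whole gonads was amplified, labelled with the dye Cy3 and hybridised to 1-colour Agilent expression arrays. The 2 arrays at E14.5 were used only to see whether a level went on changing. Both E12.5 arrays lay on 1 slide, while the E13.5 and E14.5 arrays shared the other slide, so for every difference below stage and slide cannot be told apart.

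CYP26B1 is an enzyme that breaks down retinoic acid, and in the normal fetal testis it keeps this signal away from the germ cells. Without it, male germ cells meet retinoic acid from the neighbouring tissue and can enter meiosis, as germ cells of the ovary do at this age. In the days after sex determination the somatic cells of a testis also diverge: Sertoli cells enclose the germ cells in cords, fetal Leydig cells begin to make androgens in the space between the cords, and peritubular myoid cells form around them. Because whole gonads were measured, fewer cells of a type and less RNA per cell cannot be told apart in any of the values that follow.

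Levels are given as the log2 signal of a gene's probe relative to the 75th percentile of its array, and a difference is the E13.5 mean minus the E12.5 mean in log2 units, ± its standard error with 2 arrays per stage. P-values come from limma with Benjamini-Hochberg adjustment over all genes tested, and a gene is said to have risen or fallen only where the adjusted p was under 0.05. They measure only the spread between these arrays. The signal at the 75th percentile was log2 10.81 and 10.44 on the E12.5 arrays and 10.27 and 9.97 on the E13.5 arrays, between 65.3% and 70.1% of probes were well above background on each of the 6 arrays, and 0 spots were saturated. Duplicate arrays correlated at r = 0.993 at E12.5 and 0.996 at E13.5 across genes, which are not independent replicates. Cyp26b1 itself read 4.96 and 4.73 at E12.5 and 4.29 and 4.20 at E13.5, a difference of -0.60 ± 0.17 (adjusted p = 0.045) that lost its call without any single one of the 4 arrays (adjusted p between 0.0771 and 0.178). The signal was well above background on all 6 arrays; whether its probe reads a deleted exon cannot be told from the files, so it does not check the genotype. The tissue label could be checked: the Sertoli genes Amh and Dhh, the germ cell gene Ddx4 and the Y-linked gene Ddx3y were above background on every array, whereas Xist, which marks female cells, did not pass the background filter.

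Of 13499 genes tested, 4324 changed between the stages, which is 32.0% of them. The rises numbered 2434 (18.0%) and the falls 1890 (14.0%), and the median difference over all genes was 0.04. Most of these were small: 741 genes rose and 425 fell by at least 2-fold, and 155 rose and 75 fell by at least 4-fold. The count was lower without any 1 of the 4 arrays. Leaving out the first or the second E12.5 array gave 2145 or 2649 changed genes, and leaving out the first or the second E13.5 array gave 2017 or 1399. By contrast, 7 genes changed from E13.5 to E14.5, 0.0519% of those tested, on arrays that shared a slide.

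**Figure D1:**
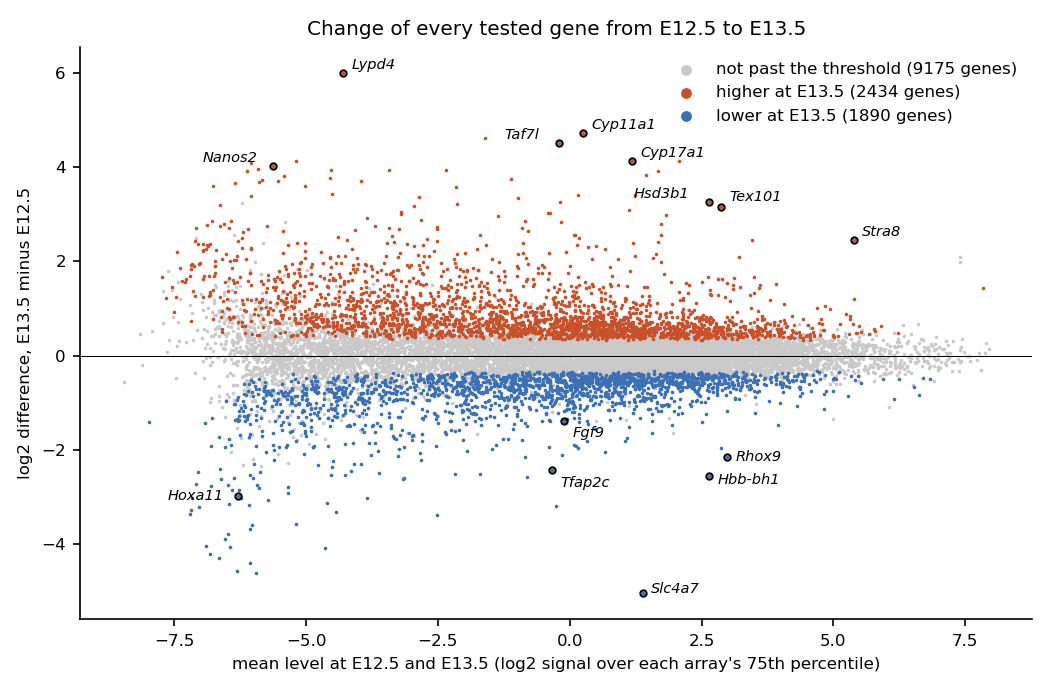
Each point is 1 of the 13499 genes tested, plotted by its mean log2 level (relative to the array's 75th percentile) and its log2 difference, E13.5 minus E12.5; genes past the threshold are coloured by direction. The steroid-synthesis gene Cyp11a1 (4.72) and the meiosis gene Taf7l (4.51) are among the points farthest above 0.

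Of the genes measured on all 4 arrays, Cyp11a1, Hao2 and Taf7l had the largest rises. Cyp11a1, the enzyme that makes the first steroid from cholesterol, read -2.14 and -2.07 at E12.5 and 2.34 and 2.88 at E13.5. Its difference of 4.72 ± 0.24 (adjusted p = 0.000855) is a 26.3-fold rise, and a second probe gave 4.75. Hao2, a peroxisomal hydroxyacid oxidase, followed with -4.0 and -3.84 at E12.5 against 0.47 and 0.92 at E13.5 (4.62 ± 0.20). Taf7l, a germ cell partner of the general transcription machinery, went from -2.55 and -2.38 to 1.68 and 2.41 (4.51 ± 0.24). Only genes whose stages did not overlap were ranked here. A probe whose accession is named Insl3 in the files of some arrays and Jak3 in those of others went from -0.02 and 0.03 to 3.99 and 4.28 (4.13 ± 0.20, adjusted p = 0.000832). INSL3 is the Leydig cell hormone of testis descent and JAK3 a kinase of blood cells, and the files do not settle which of them that probe reads. A separate Jak3 probe rose by 3.41, while another Jak3 probe gave -0.48.

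Other large rises were Cyp17a1 (4.12), Rhox3a (3.94), Asb9 (3.93), Syt10 (3.92), Adh1 (3.84), Dmrtc2 (3.76), Lalba (3.70), Islr2 (3.58), M1ap (3.41) and Hs6st3 (3.36). Rhox3a is an X-linked homeobox gene of reproductive tissue, Syt10 a synaptotagmin, Adh1 an alcohol dehydrogenase that can oxidise retinol, and M1ap a gene needed in meiosis. They did not all behave alike afterwards. At E14.5 the levels of Rhox3a were higher again (-1.98 and -0.92 at E13.5, then 0.38 and 0.52), as were those of Asb9 (-0.66 and -0.09, then 1.22 and 0.95). Syt10 had E13.5 readings of 3.47 and 3.79 and then 3.69 and 2.88, and Hs6st3 -1.12 and -1.23 and then -1.32 and -1.73, so for both the difference from E12.5 was present at the first step and not larger a day later.

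**Figure D2:**
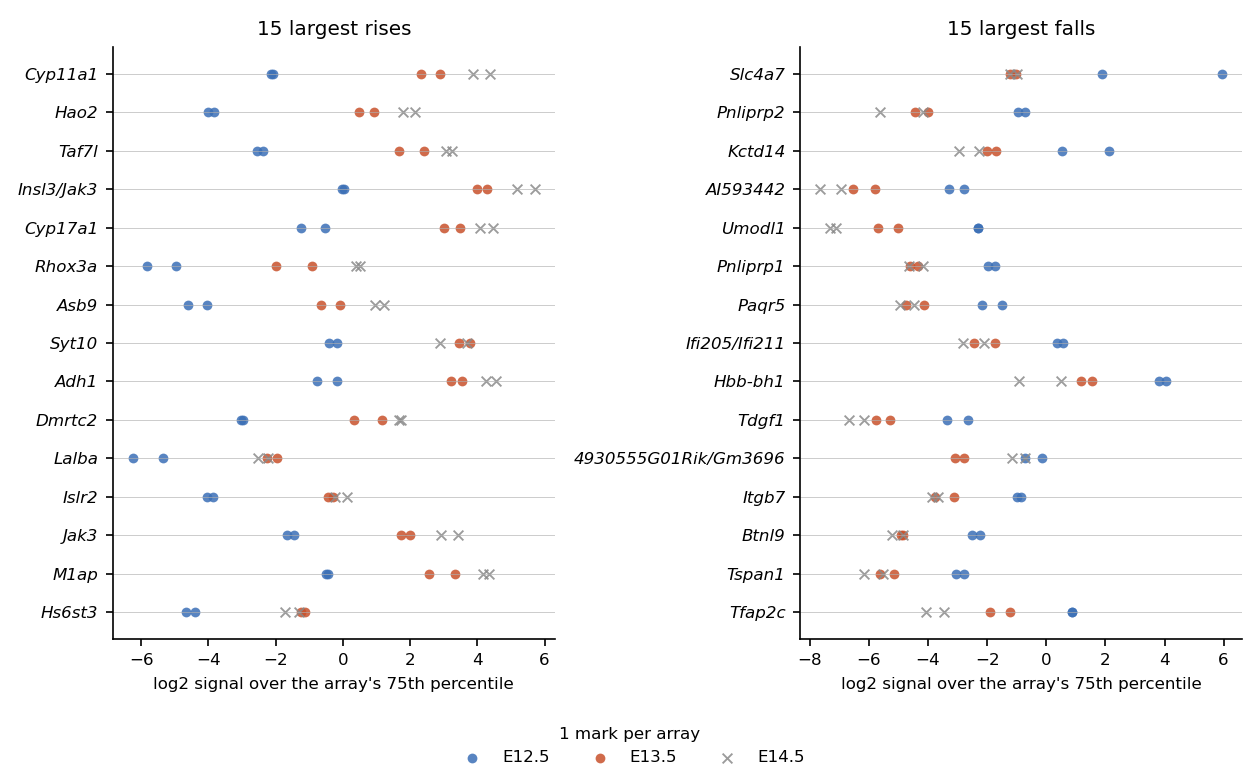
Points are single arrays for the 15 largest rises and the 15 largest falls among genes above background on all 4 arrays of E12.5 and E13.5; the axis is the log2 level relative to the array's 75th percentile and colours give the stage. Only genes whose E12.5 and E13.5 arrays did not overlap were ranked, so these points lie apart by selection. The E12.5 points of Slc4a7 (5.94 and 1.89) are spread far wider than those of other genes.

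Falls were fewer. The pancreatic lipase relatives Pnliprp2 (-3.38 ± 0.45, adjusted p = 0.00557) and Pnliprp1 (-2.62 ± 0.20) both fell. Pnliprp2 read -0.72 and -0.95 at E12.5 and -4.01 and -4.43 at E13.5. Umodl1 fell by 3.03 and was above background on neither array at E14.5. Further falls were those of Kctd14 (-3.19), AI593442 (-3.14), Paqr5 (-2.61), Tdgf1 (-2.54), Itgb7 (-2.51), Btnl9 (-2.50), Tspan1 (-2.46) and Tfap2c (-2.43). The fitted fall of the bicarbonate transporter Slc4a7 was larger in size (-5.05 ± 1.18, adjusted p = 0.0253), but its E12.5 arrays read 5.94 and 1.89. Its other probes gave -0.63 and 0.01, and the call was lost without the first or the second E13.5 array (adjusted p = 0.0849 and 0.093).

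Most fetal Leydig genes rose: 15 of the 21 tested were higher at E13.5 and 1 was lower, 76.2% beside 32.0% over all genes. The median difference was 0.67 against 0.04 over all genes. Cholesterol enters steroid synthesis through uptake and transport, and both steps rose. Scarb1, the receptor that takes up lipoprotein cholesterol, went from 1.70 and 1.77 to 3.05 and 3.55 (1.56 ± 0.19, adjusted p = 0.00475), and Star, which carries cholesterol into the mitochondrion, from -2.10 and -1.77 to 1.02 and 1.19 (3.04 ± 0.20, adjusted p = 0.00161). Downstream of Cyp11a1, the enzyme Hsd3b1 read 0.75 and 1.25 and then 4.24 and 4.28 (3.26 ± 0.21), and Cyp17a1, which leads on to androgens, -1.23 and -0.52 and then 3.01 and 3.48 (4.12 ± 0.29, adjusted p = 0.00166). Fdx1, the electron donor of Cyp11a1, rose by 1.29 ± 0.10. No array of one stage reached the range of the other for these enzymes. The same held for all 4324 changed genes and for 9706 of the 13499 tested.

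The receptor for luteinising hormone, Lhcgr, was above background on neither E12.5 array and on both E13.5 arrays, and was at least 3.38-fold higher at E13.5 (adjusted p = 0.000832). Such a bound sets the mean of the brighter stage against the dimmest signal still called above background on the arrays of the other. Ren1, the renin gene, went from -0.43 and 1.08 to 3.17 and 3.07 (2.79 ± 0.46, adjusted p = 0.00945), with E12.5 arrays that differed from each other far more than the E13.5 ones. Nr5a1, the transcription factor that both Leydig and Sertoli cells need, rose by 0.53 ± 0.11 (adjusted p = 0.0165). Hsd17b3, which makes testosterone and in the fetal testis is a Sertoli gene, read 0.22 and 0.47 at E12.5 and -0.21 and 0.44 at E13.5 and did not pass the test (adjusted p = 0.47). The single fall was that of Mc2r, the receptor for adrenocorticotropic hormone, which read -2.09 and -2.01 and then -2.68 and -2.72 (-0.65 ± 0.10, adjusted p = 0.00878, lost without the second E13.5 array at 0.0602). Without that array 8 Leydig genes rose in place of 15.

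Since steroid cells use cholesterol, the list for its synthesis and uptake was read beside these: 9 of 27 rose and 2 fell, with a median of 0.29. That is 40.7% called, beside 32.0% over all genes. The synthesis enzymes Lss (0.90 ± 0.13) and Mvd (0.75 ± 0.11) rose, and Soat1, which stores cholesterol as esters, fell by 0.68. Leaving out the first and second E12.5 array and the first and second E13.5 array in turn gave 5, 6, 4 and 3 rises and 0, 1, 0 and 0 falls. Of 5 adrenal cortex genes tested 80.0% were called: Mc2r was the 1 that fell and 3 rose. They were Hsd3b1, named above, Akr1b7 (1.37 ± 0.16) and Mrap, an accessory protein of the Mc2r receptor, which went from -3.13 and -3.01 to -0.89 and -0.91 (2.17 ± 0.11). Cyp21a1 and Cyp11b2, the enzymes that define adrenal steroids, did not pass the background filter at any stage.

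Most meiosis genes rose too. In the limma fit 18 of 26 tested rose and 0 fell, 69.2% beside 32.0% over all genes. The median difference was 1.55, and at an unadjusted p under 0.05 the counts were 21 and 0. Leaving out 1 of the 4 arrays gave between 14 and 18 rises. Stra8, the retinoic acid target that opens the meiotic programme, was already at 3.98 and 4.33 at E12.5 and reached 6.44 and 6.77 at E13.5 (2.45 ± 0.17, adjusted p = 0.00179, 5.47-fold). Cohesin subunits that hold meiotic chromosomes rose with it, among them Rec8 (2.33 and 1.98, then 4.11 and 4.39), Stag3 (1.62 ± 0.15) and Smc1b (1.45 ± 0.14). The E12.5 arrays lay below both E13.5 arrays for each of these genes, as they did for all 2434 genes that rose.

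Genes for 4 of the 5 synaptonemal complex proteins tested, parts of the scaffold that pairs chromosomes, rose as well, and Syce2 did not pass the test (0.41 ± 0.15, adjusted p = 0.0774). Sycp3 went from -1.31 and -1.04 to 0.77 and 1.27 (2.19 ± 0.22), Sycp1 from -2.31 and -1.62 to -0.06 and 0.46 (2.17 ± 0.27), Sycp2 by 2.44 ± 0.38 and Tex12 by 1.87 ± 0.20. Hormad1, which marks unpaired chromosome axes, rose by 1.62 ± 0.24, and Dmc1, the recombinase that repairs meiotic breaks, by 1.21 ± 0.17 (-3.28 and -3.13, then -2.24 and -1.76). Terb1, which tethers telomeres to the nuclear envelope, was above background on no E12.5 array and was at least 8.87-fold higher at E13.5. The same was true of the cyclin Ccnb3, at least 11.4-fold higher. Spo11, which cuts the DNA, rose by 1.12 ± 0.24 (adjusted p = 0.02), and that call was lost without either E12.5 array or the second E13.5 array (adjusted p between 0.058 and 0.077).

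Members that did not pass the test included Trip13 (-0.16), Mei4 (0.10), Brca2 (0.20) and Hfm1 (0.31). At E14.5, 24 of the 26 genes had both arrays above both E12.5 arrays, which lay on another slide. The same share over all genes was not worked out, so this count does not set the list apart. Non-overlap was common: E12.5 and E13.5 arrays lay apart, in either direction, for 9706 of the 13499 genes tested. The levels then spread: Dmc1 read -0.83 and -0.85 and Sycp3 1.89 and 2.23 at E14.5, above both E13.5 arrays, whereas Smc1b had E13.5 readings of 4.06 and 3.85 and then 3.97 and 3.87.

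**Figure D3:**
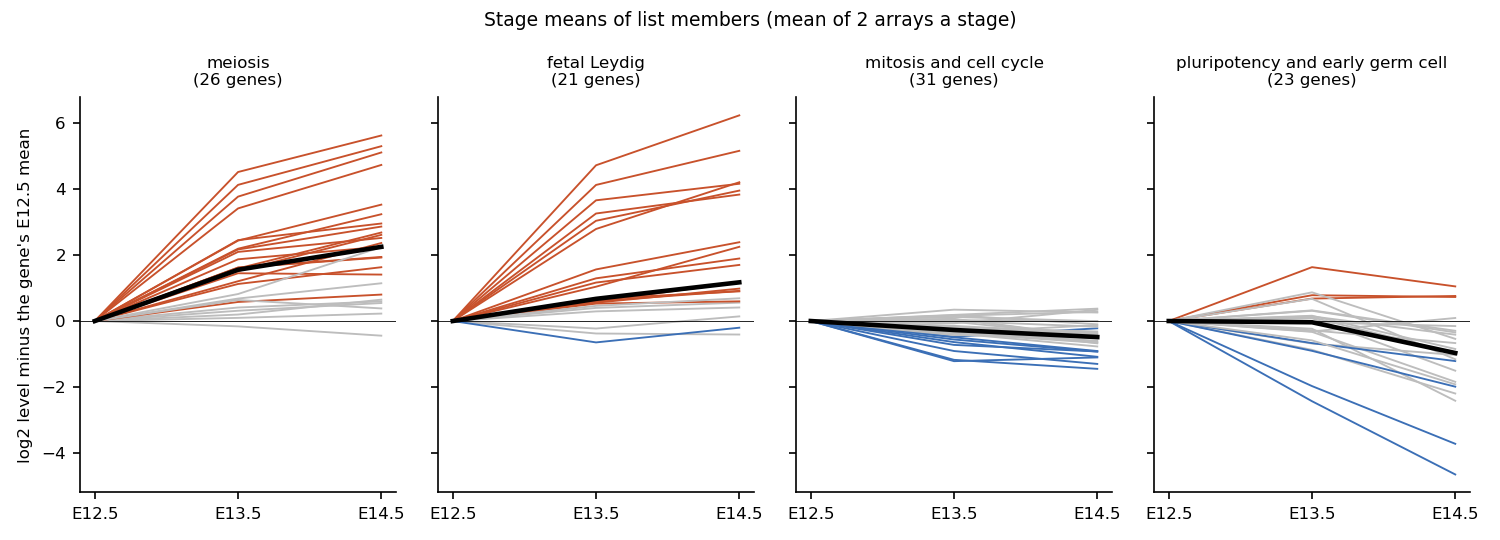
Each line is the mean log2 level of 1 gene at E12.5, E13.5 and E14.5, set to 0 at E12.5, in panels by gene list; orange lines rose, blue lines fell and grey lines did not pass the test between E12.5 and E13.5, and black is the list's median. The black line climbs most in the meiosis panel, where the median difference is 1.55 at the first step and no line is blue.

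The promoters of 5 meiosis genes that rose are shown because their last 100 bases before the annotated start hold the E-box CACGTG, which reads the same on both strands. Sequences are from RefSeq (GRCm38.p6), written 5′ to 3′ on the gene's strand, with the E-box in capitals. They are Taf7l at chrX:134476491-134476590 (minus strand), Sycp3 at chr10:88459487-88459586 (plus), Tex12 at chr9:50561269-50561368 (minus), Sycp1 at chr3:102936101-102936200 (minus) and Hormad1 at chr3:95559577-95559676 (plus, the first of 2 starts).
Taf7l: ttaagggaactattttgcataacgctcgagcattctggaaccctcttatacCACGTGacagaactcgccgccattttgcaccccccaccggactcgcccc
Sycp3: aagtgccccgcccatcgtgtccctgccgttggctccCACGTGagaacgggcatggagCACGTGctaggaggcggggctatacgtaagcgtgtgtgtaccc
Tex12: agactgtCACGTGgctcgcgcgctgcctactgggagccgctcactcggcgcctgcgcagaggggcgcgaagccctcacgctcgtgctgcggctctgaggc
Sycp1: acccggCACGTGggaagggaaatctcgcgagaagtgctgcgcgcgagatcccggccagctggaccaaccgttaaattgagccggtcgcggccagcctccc
Hormad1: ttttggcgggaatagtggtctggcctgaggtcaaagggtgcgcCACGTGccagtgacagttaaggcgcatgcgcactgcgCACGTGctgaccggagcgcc
Sycp3 and Hormad1 hold the motif at 2 places. In the 250 bases before the start, 6 of the 16 meiosis genes that rose and have a promoter in the table held it (37.5%), 1 of 7 that did not pass the test did (14.3%), and 6.02% of all 32851 promoters did. In the last 100 bases these shares were 31.2% (5 of 16), 14.3% and 3.17%. A list gene counted if any of its starts held a match, while the share over all promoters counts each start singly. List genes with several starts thus had more chances of a match, so the shares are not strictly alike. Stra8, Rec8 and Dmc1 held no match in either window. A match describes these letters only and was not tested as a binding site.

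Germ cell genes outside meiosis rose in part. Of 16 general germ cell genes 8 rose and 1 fell, and of 14 male germ cell genes 7 rose and 1 fell, with medians of 0.77 and 0.85. The shares called were 56.2% and 57.1%, beside 32.0% over all genes. Ddx4, the RNA helicase that marks germ cells, read 2.91 and 2.95 and then 3.98 and 3.90 (1.01 ± 0.11, adjusted p = 0.00337), and read 4.04 and 3.91 at E14.5. Tex101, a germ cell surface protein, went from 1.14 and 1.44 to 4.06 and 4.81 (3.15 ± 0.25). Mael (1.67 ± 0.14), Mov10l1 (2.49 ± 0.25) and Tdrd1 (1.51 ± 0.23), all parts of the piRNA pathway that silences transposons, rose, and Piwil1 of the same pathway was at least 2.27-fold higher after reading below background on both E12.5 arrays. Leaving out the first E12.5 array or either E13.5 array gave 5 rises in the general list.

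Nanos2, the RNA-binding protein that holds male germ cells back from meiosis, was above background on no E12.5 array and read -3.77 and -3.46 at E13.5, at least 6.30-fold higher (adjusted p = 0.00308). At E14.5 it read -3.29 and -3.58. Dnmt3l, a cofactor of DNA methylation in male germ cells, read -5.21 and -4.82 and then -4.42 and -4.12 and did not pass the test (0.74 ± 0.32, adjusted p = 0.125). Kit, the receptor for stem cell factor, went the other way, from 1.33 and 1.5 to 0.59 and 0.48 (-0.88 ± 0.12, adjusted p = 0.00542).

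Pluripotency and early germ cell genes did not move together at this step: 3 of 23 rose, 4 fell and the median was -0.04. That is 30.4% called, close to the 32.0% over all genes. The core factors Pou5f1 (-0.04 ± 0.37), Nanog (0.08 ± 0.42) and Sox2 (0.11 ± 0.42) did not pass the test, and their E12.5 and E13.5 arrays overlapped for Pou5f1 and Nanog. Tfap2c, a factor of early germ cells, fell from 0.88 on both arrays to -1.21 and -1.89 (-2.43 ± 0.28, adjusted p = 0.00424) and read -3.46 and -4.08 at E14.5. Tdgf1, a NODAL co-receptor and the 1 fall of the male germ cell list above, read -3.35 and -2.63 and then -5.29 and -5.77. Within the pluripotency and early germ cell list, the interferon-induced membrane protein Ifitm3 rose by 1.63 ± 0.18. From E13.5 to E14.5 the list's median difference was -1.01, where Nanog read -0.68 and -0.87 and then -1.74 and -2.99. Without the first or second E12.5 array or the second E13.5 array, 1 gene of this list fell in place of 4.

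Sertoli genes split. Of 30 tested, 11 rose, 7 fell and the median was 0.15, with 60.0% called beside 32.0% over all genes. Sox9, the transcription factor that makes a Sertoli cell, read 3.52 and 2.91 at E12.5 and 1.97 and 1.96 at E13.5, a difference of -1.25 ± 0.20 (adjusted p = 0.00909, 2.38-fold lower). Its 2 other probes gave -0.83 and -0.44. The hormone Amh, which removes the female ducts and is a target of SOX9, read 1.15 and 1.07 and then 1.58 and 1.51 (0.43 ± 0.12, adjusted p = 0.0386), a call lost without any single one of the 4 arrays (adjusted p between 0.0903 and 0.163). Other members of the list had larger rises: Clu went from 2.41 and 2.90 to 4.16 and 4.48 (1.67 ± 0.21), Inha, the alpha subunit of inhibin, from 1.51 and 1.30 to 2.83 and 2.68 (1.35 ± 0.12), and Defb36 (2.09), Defb19 (1.33), Sostdc1 (1.33) and Cldn11 (1.06) followed. The falls included the secreted factor Fgf9 (-1.39) as well as Sox9. Among those that did not pass the test were Dhh, Gata4, Wt1 and Ptgds (0.06, 0.02, -0.27 and 0.13). Leaving out the first and second E12.5 and the first and second E13.5 array in turn gave 7, 10, 7 and 7 rises and 3, 3, 4 and 3 falls.

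Among FGF genes, which keep Sox9 active in the early testis, 6 of 18 fell and 2 rose, 44.4% beside 32.0% over all genes. Fgf9, the ligand made by Sertoli cells, fell from 0.64 and 0.53 to -0.63 and -0.96 (-1.39 ± 0.15, adjusted p = 0.00355) and read -1.47 and -1.65 at E14.5. Etv5, a transcription factor switched on by FGF signals, went from -0.29 and -0.44 to -1.46 and -1.84 (-1.29 ± 0.16). Of the feedback inhibitors of the pathway, Dusp6 fell by 0.67 ± 0.20 (adjusted p = 0.0464, lost without any single one of the 4 arrays at 0.0692 to 0.177) and Spry4, with -0.79 ± 0.25, did not pass the test (adjusted p = 0.0559). The inhibitor Spry1 also fell (-0.49, adjusted p = 0.025). Spry2 differed in the other direction and did not pass the test (0.38, adjusted p = 0.296). The receptors Fgfr1 (0.13), Fgfr2 (0.30) and Fgfr3 (-0.11) did not pass it either. Without the first E12.5 array or either E13.5 array, 2 FGF genes fell, and without either E13.5 array 0 rose.

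Hedgehog signals pass from Sertoli cells, through DHH, to the Leydig and peritubular cells outside the cords. The ligand Dhh read 5.07 and 4.82 at E12.5 and 5.0 and 5.01 at E13.5, and these arrays overlapped (0.06 ± 0.13, adjusted p = 0.749). Of 13 pathway genes 5 rose and 1 fell, 46.2% beside 32.0% over all genes. The rises included Gli1, the pathway's own transcriptional target, which went from -2.19 and -1.96 to -1.17 and -0.86 (1.06 ± 0.16, adjusted p = 0.0073). The receptor Ptch1 read -2.93 and -3.06 and then -2.96 and -3.15, with overlapping arrays (adjusted p = 0.754). Hhip, an inhibitor induced by the pathway, did not pass the test either (-0.02 ± 0.14). The signal transducer Smo rose by 0.69, and the co-receptor Gas1 fell by 0.90 ± 0.11. Ihh, a second ligand, was above background on no E12.5 array and on 1 of 2 at E13.5. Without the second E13.5 array 2 Hedgehog genes rose.

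**Figure D4:**
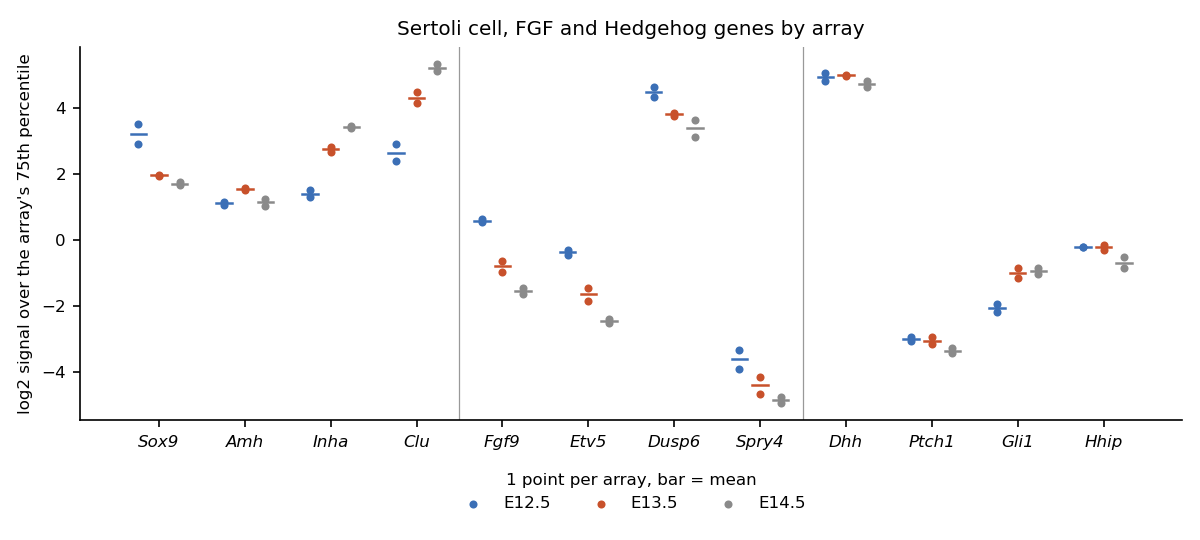
Points are the single arrays of 12 genes, grouped as Sertoli genes, FGF ligand and targets, and Hedgehog ligand and targets, with the log2 level relative to the array's 75th percentile on the axis and the stage in colour. Sox9, Fgf9 and Etv5 are lower on both E13.5 arrays, Inha, Clu and Gli1 are higher, and the stages overlap for Dhh and Ptch1.

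In the Notch pathway, which keeps interstitial cells as progenitors, 6 of 20 genes rose and 4 fell. Both shares lay above those over all genes, where 18.0% rose and 14.0% fell. Heyl, a target of the pathway, went from 2.15 and 1.94 to 3.34 and 3.30 (1.28 ± 0.12, adjusted p = 0.00292), and Dll4, a ligand of vessel cells, from -1.59 and -1.64 to -2.52 and -2.35 (-0.82 ± 0.11). The ligand Jag1 rose by 1.23 on its brightest probe, but averaging its probes ended the call (adjusted p = 0.0836) and another probe gave -0.24. The Notch counts without the first and second E12.5 and the first and second E13.5 array were 6, 4, 5 and 2 rises and 1, 3, 1 and 1 falls.

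Wnt genes were evenly divided, with 5 rises and 5 falls among 26. That is 38.5% called, beside 32.0% over all genes. Wnt5a (-1.04 ± 0.12) and the receptor Fzd7 (-1.14 ± 0.14) fell, and Wnt4, the ligand of ovarian development, rose slightly, from 0.62 and 0.81 to 1.07 and 1.27 (0.46 ± 0.12, adjusted p = 0.038, lost without any single one of the 4 arrays at 0.0586 to 0.197). Of 30 TGF-beta family genes 6 rose and 5 fell, a share of 36.7%. Inhba, whose product forms activin and acts from Leydig cells on the cords, went from 0.13 and -0.07 to 1.34 and 1.69 (1.49 ± 0.22, adjusted p = 0.00717) and to 2.30 and 2.85 at E14.5. Without 1 of the 4 arrays the Wnt rises numbered 2, 4, 2 and 0 and the falls 3, 3, 2 and 3, in the order used above, and the TGF-beta rises 3, 6, 2 and 2 and the falls 1, 3, 1 and 1.

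Contractile genes of peritubular myoid cells rose in 5 of 13 cases, with 1 fall, 46.2% beside 32.0% over all genes. Smooth muscle actin, Acta2, went from 2.61 and 3.09 to 4.25 and 4.47 (1.51 ± 0.20, adjusted p = 0.00529), and its other probes gave 1.10 and -0.06. Calponin, Cnn1, went from -2.88 and -3.12 to -1.33 and -0.98 (1.85 ± 0.24) and Tagln from 1.28 and 1.72 to 2.78 and 3.23. Myh11, the myosin of mature smooth muscle, did not pass the test (0.32 ± 0.36), and the integrin Itga8 fell by 1.42 ± 0.14. Interstitial progenitor genes showed 7 rises and 3 falls of 19 (52.6%), with rises of Nes (0.82 ± 0.12) and Inhba and a fall of Wnt5a. Leaving out the first E12.5 or the second E13.5 array gave 3 peritubular rises, and leaving out the first E12.5 array or either E13.5 array gave 1 interstitial fall.

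Markers of the ovarian pathway were read next. Of 18 pregranulosa genes 6 fell and 3 rose, with a median of -0.39 and a called share above the 32.0% over all genes. The rises were those of Cdkn1b (0.90), Wnt4 (0.46) and Irx5. Irx5 was above background on no E12.5 array and was at least 1.23-fold higher at E13.5. Runx1, a factor of fetal granulosa cells, read -3.33 and -3.32 and then -4.54 and -4.57 (-1.23 ± 0.10, adjusted p = 0.00203), Zfpm2 fell by 1.06 ± 0.12 and Lgr5 by 0.85 ± 0.12. Foxl2, the factor that maintains granulosa cells, was near the background limit throughout (-5.31 and -5.45, then -5.83 and -6.02, above background on 1 of 2 arrays at E13.5) and did not pass the test (adjusted p = 0.0569). Of these genes 3 fell when the first E12.5 array was left out, and 1, 1, 1 and 0 rose as each array was left out in the same order.

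Of 9 oogenesis genes tested 4 rose and 0 fell by limma (5 and 0 at an unadjusted p under 0.05). The limma share was 44.4%, beside 32.0% over all genes. Figla, a factor of the primordial follicle that the female germ line turns on, was above background on no E12.5 array, read -2.93 and -2.18 at E13.5 and was at least 13.1-fold higher (adjusted p = 0.00208). At E14.5 it read -1.22 and -0.91. Uchl1, a ubiquitin hydrolase of germ cells, rose by 1.44 ± 0.20. Nobox (0.88), Lhx8 (0.92) and Gdf9 (-0.00) did not pass the test, and the zona pellucida genes Zp2 and Zp3 did not pass the background filter. Averaging the probes of a gene gave 2 oogenesis rises in place of 4.

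Genes that make, carry or read retinoic acid gave 5 rises and 3 falls among 24, a share of 33.3% beside 32.0% over all genes. Rbp4, the carrier of retinol, went from -0.74 and -0.21 to 0.68 and 0.83 (1.23 ± 0.19, adjusted p = 0.00798). Aldh1a1, a retinaldehyde dehydrogenase, read 4.31 and 4.47 and then 5.10 and 5.22 (0.77 ± 0.11, adjusted p = 0.00701, 0.0502 without the second E13.5 array). Aldh1a2, the main source enzyme of the mesonephros, read 2.76 and 2.79 and then 2.71 and 2.78 and did not pass the test (-0.03 ± 0.10). The direct targets Rarb (-0.13 ± 0.11, adjusted p = 0.406) and Crabp1 (0.15 ± 0.19) did not pass the test at this step, and at E14.5 Rarb read 0.40 and 0.53 against -0.29 and -0.19 at E13.5. The counts were 2, 4, 5 and 1 rises and 1, 0, 1 and 0 falls as each array was left out, and 8 rises and 1 fall with normexp background correction.

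Some genes of cell division fell. By limma 8 of 31 mitosis genes fell and 0 rose, with a median of -0.27, and 6 of 22 replication genes fell and 0 rose, with a median of -0.15. The shares called, 25.8% and 27.3%, were below the 32.0% over all genes, of which 14.0% were falls. At an unadjusted p under 0.05, 13 mitosis genes were lower and 0 higher, and 8 replication genes were lower and 1 higher. Kif11, the motor that separates the spindle poles, went from 0.45 and 0.50 to -0.67 and -0.73 (-1.18 ± 0.10, adjusted p = 0.00242). Cyclin D2, Ccnd2, went from 4.03 and 4.23 to 2.94 and 2.89 (-1.22 ± 0.15). Smaller falls were those of the checkpoint kinase Ttk (-0.91 ± 0.18), of Cdk1 (-0.64 ± 0.15), which drives entry into mitosis, and of its partner Ccnb1 (-0.49 ± 0.12). Without the second E13.5 array the last 3 calls were lost (adjusted p = 0.082, 0.117 and 0.168). Those of Cdk1 and Ccnb1 were also lost without either E12.5 array, and that of Ccnb1 without the first E13.5 array. The other probes of Ccnb1 gave -0.13 and -0.0005, and averaging its probes ended the call in limma (adjusted p = 0.251). Top2a (0.34), Foxm1 (0.12) and Mcm2 (0.27) did not pass the test. Leaving out the 4 arrays in the same order gave 3, 4, 4 and 2 mitosis falls and 4, 1, 1 and 0 replication falls.

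Promoters of 4 mitosis genes that fell are shown because they hold the CCAAT box bound by NF-Y, a motif common in cell cycle genes. The 100 bases before the annotated start are given from RefSeq (GRCm38.p6), 5′ to 3′ on the gene's strand, with CCAAT or, on the other strand, ATTGG in capitals. They are Kif11 at chr19:37376282-37376381 (plus), Ttk at chr9:83834589-83834688 (plus), Cdk1 at chr10:69352913-69353012 (minus) and Ccnb1 at chr13:100786487-100786586 (minus).
Kif11: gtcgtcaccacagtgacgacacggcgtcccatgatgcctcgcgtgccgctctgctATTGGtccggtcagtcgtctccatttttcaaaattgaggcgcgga
Ttk: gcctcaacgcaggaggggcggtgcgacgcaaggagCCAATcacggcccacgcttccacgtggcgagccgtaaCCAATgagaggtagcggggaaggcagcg
Cdk1: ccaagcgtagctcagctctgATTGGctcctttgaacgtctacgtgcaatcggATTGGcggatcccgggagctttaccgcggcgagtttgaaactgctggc
Ccnb1: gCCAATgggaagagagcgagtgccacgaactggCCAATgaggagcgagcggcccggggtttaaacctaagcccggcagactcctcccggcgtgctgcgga
In the 250 bases before the start the box was found in 5 of the 6 mitosis genes that fell and have a promoter in the table (83.3%), in 12 of 16 that did not pass the test and in 33.8% of all 32851 promoters. Genes that fell and genes that did not pass thus both held it above the share of all promoters. Here too list genes counted by any of their starts and all promoters by single starts. The promoter of Ttk also holds CACGTG, overlapping neither box. Of the other letters searched on both strands over 4 lists, AAGGTCA, the site of NR5A1, was in 0 of 8 fetal Leydig promoters of genes that rose, 1 of 4 of genes that did not pass and 4.08% of all, TTTGAA was in 2 of 6 mitosis promoters of genes that fell, 4 of 16 of genes that did not pass and 16.0% of all, and AGATAA was in 1 of 2 erythroid promoters of genes that fell, 2 of 9 of genes that did not pass and 9.99% of all. In other lists, AAGGTCA was in 2 of 16 meiosis promoters of genes that rose (12.5%), Stra8 among them, and 0 of 7 that did not pass. AGATAA was in 2 of 8 fetal Leydig promoters of genes that rose (25.0%) and 0 of 4 that did not pass. Shares in the remaining lists are not all given here. The direct repeat of retinoic acid receptors was found in 3 of all 32851 promoters and in 0 of the 16 meiosis genes that rose.

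Cell cycle arrest genes showed 3 rises and 5 falls of 17, 47.1% beside 32.0% over all genes. Cdkn2a, which encodes the inhibitors p16 and p19, went from -4.88 and -4.52 to -1.79 and -1.61 (3.0 ± 0.22, adjusted p = 0.00179), the largest difference in this list. The growth arrest genes Gadd45g (-0.86 ± 0.13) and Gadd45a (-0.84 ± 0.13) fell, and Cdkn1a did not pass the test (-0.35). Of 24 apoptosis genes 7 fell and 3 rose (41.7%), with a median of -0.34. The survival gene Bcl2l1 rose by 0.70 ± 0.10. Leaving out the arrays in turn gave 4, 4, 1 and 0 apoptosis falls and 1 rise each time, and 3, 2, 1 and 1 arrest rises and 2, 3, 2 and 2 arrest falls.

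Lists of other cells in or near the dissected gonad were called at shares close to or below that of all genes in some cases and above it in others. Of 16 erythroid genes 5 fell and 0 rose in limma's test, with a median of -0.68 (7 and 1 at an unadjusted p under 0.05). The share called was 31.2%, beside 32.0% over all genes, and the mean level of the list was 0.22 and 0.40 at E12.5 and -0.27 and -0.66 at E13.5. The embryonic globin Hbb-bh1, made by primitive red cells of the yolk sac, went from 3.81 and 4.05 to 1.56 and 1.17 (-2.56 ± 0.45, adjusted p = 0.0112) and to 0.50 and -0.94 at E14.5. That call was lost without either E12.5 array or the second E13.5 array (adjusted p between 0.0506 and 0.0592). The red cell membrane gene Slc4a1 fell (-1.45 ± 0.19), while the other embryonic globins Hba-x (-1.04, adjusted p = 0.0603) and Hbb-y (-1.09, adjusted p = 0.122) did not pass the test. Nor did the adult-type globins, Hba-a1 reading 6.65 and 6.83 and then 7.21 and 7.06. Without the first or the second E12.5 array, 2 or 3 erythroid genes fell.

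Mesonephros and duct genes, from the tissue attached to the gonad, fell in 6 of 19 cases and rose in 2. That is 42.1% called, beside 32.0% over all genes. Their mean level was -1.20 and -1.08 at E12.5 and -1.73 and -1.86 at E13.5. Calb1, a calcium-binding protein of the duct, fell by 2.24 ± 0.20 (adjusted p = 0.00283) and Emx2, a factor of the urogenital epithelium that is also on the coelomic surface list, by 1.14 ± 0.15. Pax2, the factor that defines the duct, read -5.75 and -5.98 and then -5.03 and -5.00 (0.85, adjusted p = 0.0214, lost without any single one of the 4 arrays at 0.0567 to 0.0973). Without the first E12.5 array 3 duct genes fell, and the rises without each array were 0, 1, 0 and 1. What part these shifts of blood and duct markers had in the changes of other genes was not tested.

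Endothelial genes showed 6 falls and 1 rise of 22, a share of 31.8% beside 32.0% over all genes, with falls of the VEGF receptor Kdr (1.61 and 1.42, then 0.45 and 0.63; -0.98 ± 0.13) and the vessel factor Sox18 (-1.01 ± 0.12), while Pecam1 (0.30) and Cdh5 (-0.40) did not pass the test. Without the first E12.5 array or either E13.5 array 2 of them fell, and 0 rose without any 1 of the 4 arrays compared. Macrophage genes showed 1 rise and 2 falls of 18, below the background share of 32.0%; the counts without each array were 0, 4, 0 and 1 rises and 0, 2, 0 and 0 falls, and 6 rose with normexp. Neural genes showed 1 rise and 4 falls of 15 (33.3%), with 2 or 1 falls without the first or second E13.5 array, and 1 fall and 3 rises with normexp. Coelomic surface genes showed 4 rises and 2 falls of 14 (42.9%), with a rise of Lhx2 (0.79), and 1, 2, 2 and 2 rises as each array was left out. Of 7 skeletal muscle genes 6 rose and 0 fell by limma (85.7%), as at an unadjusted p under 0.05. Among the rises was Myog, at least 3.78-fold higher after reading below background at E12.5. The counts of rises without each array were 2, 4, 3 and 2. The muscle-defining genes Myod1, Myf5, Ttn and Ckm did not pass the background filter.

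**Figure D5:**
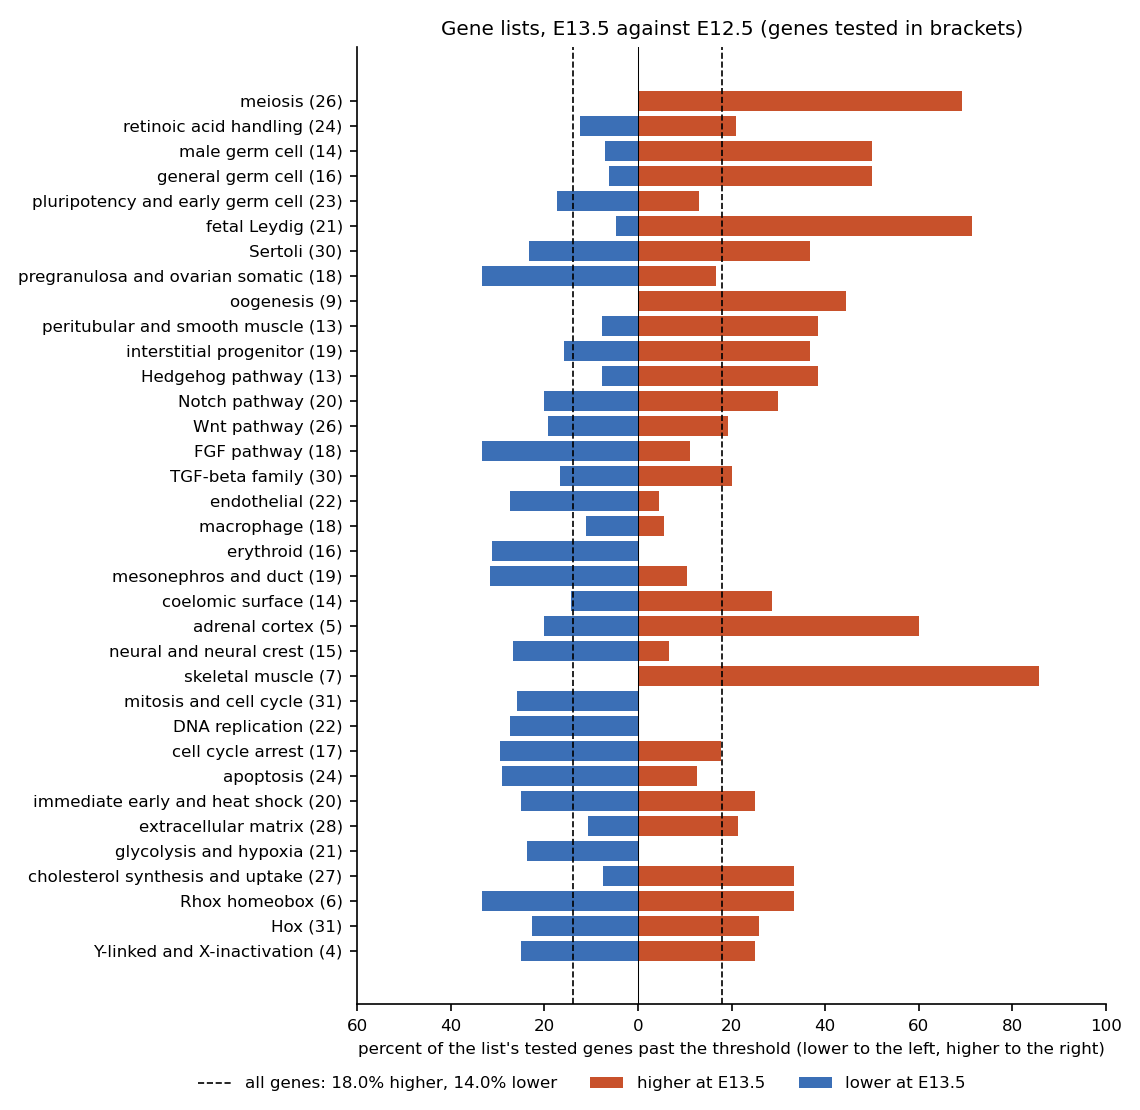
Bars give, for each of the 35 gene lists, the percent of tested genes that rose (to the right) and that fell (to the left). Dashed lines mark the shares over all genes, 18.0% higher and 14.0% lower. The longest bars to one side are those of skeletal muscle (6 of 7 rose), fetal Leydig (15 of 21) and meiosis genes (18 of 26). Mitosis (8 falls) and replication (6 falls) have no bar to the right.

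Homeobox genes changed in both directions. Of 6 Rhox genes tested 2 rose and 2 fell, 66.7% beside 32.0% over all genes, and the counts were the same without any 1 array. Rhox9 went from 4.21 and 3.91 to 2.16 and 1.65 (-2.15 ± 0.20, adjusted p = 0.00294) and Rhox6 from 2.87 and 2.49 to 1.52 and 1.37 (-1.24 ± 0.18). Rhox11, below background on both E12.5 arrays, was at least 1.48-fold higher, beside the rise of Rhox3a given above. Of 31 Hox genes 8 rose and 7 fell (48.4%). Hoxd1 was at least 2.32-fold higher after reading below background at E12.5, and Hoxa9 fell by 0.82 ± 0.11. Leaving out the 4 arrays gave 7, 6, 6 and 5 Hox rises and 1, 2, 3 and 3 falls. On the Y chromosome Ddx3y rose by 0.69 and Kdm5d fell by 0.44, both calls being lost without any single one of the 4 arrays (adjusted p between 0.0542 and 0.176), and 2 others of 4 tested on that list did not pass.

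Stress, matrix and energy genes gave mixed pictures. Immediate early and heat shock genes showed 5 rises and 5 falls of 20, a called share above the 32.0% over all genes. The heat shock gene Hspa1a went from -0.68 and -0.94 to 1.44 and 1.56 (2.31 ± 0.22, adjusted p = 0.003). Myc, a growth regulator, went from 0.89 and 0.73 to -0.50 and -0.39 (-1.25 ± 0.13, adjusted p = 0.00308). Of 28 extracellular matrix genes 6 rose and 3 fell, one of them Fbln2, by 0.76; the share of 32.1% is that of all genes (32.0%). Of 21 glycolysis and hypoxia genes 5 fell and 0 rose by limma, with a median of -0.24 (8 and 0 at an unadjusted p under 0.05), a share of 23.8%. Without each of the 4 arrays in turn the heat shock and immediate early counts were at least 3 rises and 1 to 2 falls, the matrix rises 1, 2, 1 and 0 with 1 fall each, and the glycolysis and hypoxia falls 2, 3, 2 and 2.

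Some genes crossed the detection limit. Above background on both E13.5 arrays and on no E12.5 array were 263 genes, of which 150 also passed the test, and 123 of those were above background on both E14.5 arrays, 6 on neither. The largest by their bound were Lypd4 (at least 31.5-fold higher), a membrane protein of sperm, Figla, Ccnb3 and Terb1, described above, and Sftpc (at least 7.51-fold). The opposite pattern held for 62 genes, of which 53 passed the test; 43 of those were above background on no E14.5 array and 6 on both. The largest were Sprr2d (at least 7.97-fold lower), a keratinising envelope protein, and the vasopressin receptor Avpr1b (at least 6.90-fold lower). Akr1c18, which inactivates progesterone, was at least 4.42-fold lower at E13.5.

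The step from E13.5 to E14.5 shares the E13.5 arrays with the first, so the values are given side by side only. Its 7 called genes were Rtl3 (2.89), Spag16 (2.35), Prss45 (1.78), Arsj (1.74), Pi15 (1.58), P2ry14 (1.33) and Ldoc1 (-1.39), all at an adjusted p of 0.0466. Among genes that rose at the first step, Cyp11a1 differed by a further 1.51 and Cyp17a1 by 1.03 at the second step, Hsd3b1 by 0.57, Stra8 by 0.50 and Ddx4 by 0.03. The second differences of these 5 genes did not pass the test (adjusted p between 0.0915 and 0.902). Both E14.5 arrays lay above both E12.5 arrays, which were on another slide, for 18 of the 21 fetal Leydig genes. The same share over all genes was not worked out, so this count does not set the list apart either.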

How the data were processed

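RNA from gonads of Cyp26b1-/- male embryos at 3 stages was hybridised to 6 arrays, 2 per stage, on 2 slides. Per the labels' protocols, tissue was kept in RNAlater, and 0.20 µg RNA was labelled with Cy3 by linear amplification. Spots were read with Agilent Feature Extraction 9.5, per the submitters' processing notes; per the file headers, the deposited intensity is background-subtracted and spatially detrended within an array but not scaled between arrays. The flags for spots well above background, saturated or outlying are those deposited. The authors' deposited table gives each probe 1 linear ratio for every stage, to an unstated reference. Its log2 difference between E13.5 and E12.5 lay within 0.05 of a constant offset of 0.105 from the one fitted here for 99.98% of 12657 genes above background on the 4 arrays; its column medians were 0.963, 1.04 and 1.01 for E12.5, E13.5 and E14.5, and how it was centred is not stated.

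Here signals were put on the log2 scale, each array's 75th percentile was subtracted and outlier spots were left out. Of 41174 probes, 21 missing on an array were dropped. RefSeq accessions (gene table of GRCm38.p6) named 23456 probes of 16567 genes, and 17608 probes had no symbol. The files of early and late arrays give different accessions for 2904 probes; 89 probes whose symbols then differ keep both names. The brightest probe stood for a gene, and 13499 genes passed the filter of being above background on both arrays of 1 or more stages. Where the dimmer stage had no array above background, only a bound is given.

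The model was fitted with limma 3.58.1 under R 4.3.3 (lmFit and eBayes without trend, all 6 arrays, 3 residual and 2.96 prior degrees of freedom), two-sided, at a Benjamini-Hochberg adjusted p of 0.05. The fit was tested on simulated data. Duplicate numbers do not mark shared litters or days in the labels, and deviations of same-numbered arrays correlated at -0.043, -0.0593 and 0.226 between stages, so no pairing was used. Alternatives were another background correction (normexp, offset 50), scaling, background filter, probe rule, variance prior and set of arrays.

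The members and the 35 gene lists were chosen with earlier results of these data known. Genes named are the 15 largest rises and falls among genes above background on all 4 arrays whose stages did not overlap. Also named are the 10 largest switched on or lost and up to 5 members per list by p plus members against a list's direction. Genes called at the second step and some fixed by name are named too. Added after their values were seen were Sycp1, Tex12, Hormad1, Dmc1, Sycp2, Spo11, Ccnb1, Ren1, Fdx1, Clu, Defb36, Dusp6, Spry4, Hhip, Piwil1, Tdrd1, Hsd17b3, Cdkn1a, Mcm2, Top2a and Foxm1, as well as list members named in the text only as not passing the test. A few list members that the rule would name are counted with their lists but not reported singly here. The handling of differing probe names and the promoters shown were also chosen after seeing the data. Tables used pandas 2.3.3 in Python 3.11.15 and plots matplotlib 3.10.9.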

Additional observations from a re-analysis of the deposited data

Results flagged for a closer look

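Probes without a gene symbol also changed between E12.5 and E13.5. Of 9137 such probes tested, 2411 passed the threshold in limma's test (26.4%), 1272 of them higher and 1139 lower at E13.5. These lie outside the comparison of named genes, and the genes they read were not analysed here.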

How the results depend on the processing

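The results are limited by having 2 arrays a stage and by stage and slide coinciding, whose part could not be measured. Leaving out 1 array at a time gave between 1399 and 3974 changed genes, with 834 to 2227 rises and 565 to 1747 falls. With no background filter 2863 genes changed, 1637 higher and 1226 lower; a minimum of 2-fold left 1166 (741 and 425); and with every probe tested, unnamed ones too, 7852 of 28389 passed (4216 and 3636). The other alternatives gave between 3486 (median scaling, 49.9% of them higher against 56.3%) and 5280 (normexp, 62.5% higher, 3714 shared with the main 4324). Of the 245 named genes that passed the threshold, 128 kept their call and direction in every alternative run for them, and 117 lost it in at least 1, most often without the second E13.5 array (100) and least often, among the 4 arrays compared, without the second E12.5 array (55). The direction turned for Fabp5 (0.035) and Ldoc1 (0.12) with normexp and for Ier2 (0.47) and Pfkp (0.049) with the mean of probes; the cause was not tested. Of 45 list counts of at least 3 genes, 18 moved by over 1.5 times with no background filter, 5 with normexp, and 32, 18, 29 and 36 without the first and second E12.5 and first and second E13.5 array. Probes with differing names, counted under the names of the later files, gave 4318 changed genes of 13484 tested, an alternative added after seeing the data. With the replicate number as a block 3774 genes changed (2155 higher, 1619 lower), although the numbers give no pairing, and 14 named genes lost their call. Slide could not be added as a block, since stage already sets it (a design of 4 columns with rank 3), so that alternative was not run. Signal over background limits the dim genes, for which only bounds are given.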
